A study of Mus musculus with 6 samples.

Results

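The G1 cyclins, cyclin-dependent kinases (CDKs) and CDK inhibitors decide whether a cell passes from the first gap phase of its cycle into DNA replication. The set described here held 10 genes, given by name: the D-type cyclins Ccnd1, Ccnd2 and Ccnd3, the kinases Cdk4, Cdk6 and Cdk2, the inhibitors Cdkn1a, Cdkn1b and Cdkn2a, and Rb1. All 10 were found among the 52249 genes of the count table, and all 10 had enough counts to be tested. The material was mouse intestinal organoids, epithelial cultures grown outside the animal, sequenced from the 3′ end of polyadenylated RNA. Every library came from organoids with a knockout of Apc, the brake on WNT signalling. The control group had the genotype Apc-knockout (3 libraries), and the other group the genotype Apc-knockout with IGF2BP3 overexpression (3 libraries). IGF2BP3 is a protein that binds RNA. The libraries of the second genotype are named OE-labelled here, since Igf2bp3 itself had 1, 0 and 0 counts in controls and 1, 0 and 0 counts in OE-labelled ones, all under the detection floor of 3 counts. The labels state neither the vector, promoter or species of the overexpressed sequence nor whether libraries came from separate cultures. The p-values therefore set the group difference against the spread between these libraries, which may be technical.

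D-type cyclins bind CDK4 or CDK6, and the complexes phosphorylate RB1, the retinoblastoma protein, which then releases E2F transcription factors. CDK2, with cyclin E, completes this step. Inhibitors of the CIP/KIP family (p21 from Cdkn1a, p27 from Cdkn1b) bind cyclin-CDK complexes, while p16, one of the proteins encoded by Cdkn2a, binds CDK4 and CDK6 directly. In the intestinal crypt, WNT signalling and MYC drive this machinery, and p21 is a known brake on it that MYC can repress.

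Of the 10 genes, Cdkn1a fell and Cdk4 rose in the OE-labelled libraries, and the other 8 did not pass the test (edgeR, adjusted p below 0.05 over all genes tested). The share called among all 10687 genes tested was 29.2% in either direction, 16.5% higher and 12.7% lower. With 2 of 10 called, the set stood no higher than this background. The group ranges did not overlap for 7 of the 10 genes (3 higher and 4 lower in OE-labelled libraries), against 45.7% of all genes tested. The median log2 fold change of the 10 genes was -0.10, with 4 of 10 above 0, against 0.04 for all genes tested.

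Library totals lay between 2180116 and 2519917 counts, and the floor of 3 counts corresponded to 1.18 to 1.41 CPM, the count scaled to a common library size. Mitochondrial ribosomal RNA took 8.93% to 9.41% of the counts in controls and 3.89% to 4.36% in OE-labelled libraries. The library names give one number series to all controls and another to all OE-labelled libraries, so library series and group cannot be told apart in any comparison. All 8 listed epithelial markers were tested, and 4 rose and 1 (Cldn7) fell, or 62.5% called against 29.2% of all genes tested. Their summed level was 4150 to 4390 CPM in controls and 5400 to 6130 CPM in the OE-labelled libraries. Of 8 fibroblast markers 6, namely Col1a2, Col3a1, Dcn, Lum, Pdgfrb and Thy1, had no count in any library, and the summed level of the list was 0.461 to 1.41 CPM in controls and 0.405 to 1.18 CPM in OE-labelled libraries. Among immune markers, Cd68 had 29 to 38 counts in controls and 35 to 50 counts in OE-labelled ones (edgeR adjusted p = 0.575), while Cd3e, Lyz2 and Adgre1 had no count. Of 4 endothelial markers 3 were detected, at 0.921 to 1.38 CPM and 0.405 to 1.18 CPM summed, with Cdh5 at 0. These are bulk RNA values, in which fewer cells of a type and less RNA per cell cannot be told apart.

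The start regions of the 2 called genes are shown because they carry different short motifs. The windows run from 250 bases before to 50 bases after a RefSeq start in GRCm38.p6, on the gene's own strand. Capitals mark the E-box CACGTG, the site MYC-MAX dimers are known to bind, and the GC box GGGCGG (or its reverse complement CCGCCC), a site of SP-family factors. The Cdk4 window lies at chr10:127063285-127063584 on the plus strand, and the Cdkn1a window at chr17:29093519-29093818 on the plus strand.
Cdk4: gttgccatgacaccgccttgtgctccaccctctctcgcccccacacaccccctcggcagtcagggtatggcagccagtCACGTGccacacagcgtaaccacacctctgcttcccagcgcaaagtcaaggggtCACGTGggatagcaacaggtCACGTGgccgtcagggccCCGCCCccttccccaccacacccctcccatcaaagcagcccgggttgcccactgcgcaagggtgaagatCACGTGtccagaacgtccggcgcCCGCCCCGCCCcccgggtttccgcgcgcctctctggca
Cdkn1a: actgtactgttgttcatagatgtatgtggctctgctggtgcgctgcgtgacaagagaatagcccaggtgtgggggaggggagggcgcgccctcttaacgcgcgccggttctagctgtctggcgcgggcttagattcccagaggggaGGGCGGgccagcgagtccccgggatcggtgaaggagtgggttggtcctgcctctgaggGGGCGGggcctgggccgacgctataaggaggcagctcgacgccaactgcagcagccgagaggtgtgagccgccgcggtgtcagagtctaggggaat

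The Cdk4 window held 4 E-boxes, whose first bases lay at -172, -118, -98 and -11 from the start, and 3 GC boxes, 2 of which overlap by a base. An E-box occurred in 7.2% of the 32851 windows of the RefSeq table, and 4 or more in 8 windows, counting several windows for a gene with several starts. The Cdk4 window also held 1 match to CTTTGAT, a TCF/LEF motif present on either strand in 3.7% of windows. The Cdkn1a window had no E-box and 2 GC boxes, at -104 and -46, and 35.7% of all windows held a GC box. A further Cdkn1a start, with a window at chr17:29090729-29091028, held none of the motifs searched. Windows were found for 7 of the 10 genes. Among the others, Cdk6 had 1 E-box at -220 and a TATAAA match, a motif in 13.6% of windows, while Cdk2 had 6 GC boxes and 2 matches to the E2F motif GCGGGAA, which 4.6% of windows held. The Cdkn2a window of the upstream start had 1 such motif and 3 GC boxes. These matches describe the reference sequence and say nothing of binding in these organoids.

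**Figure D1:**
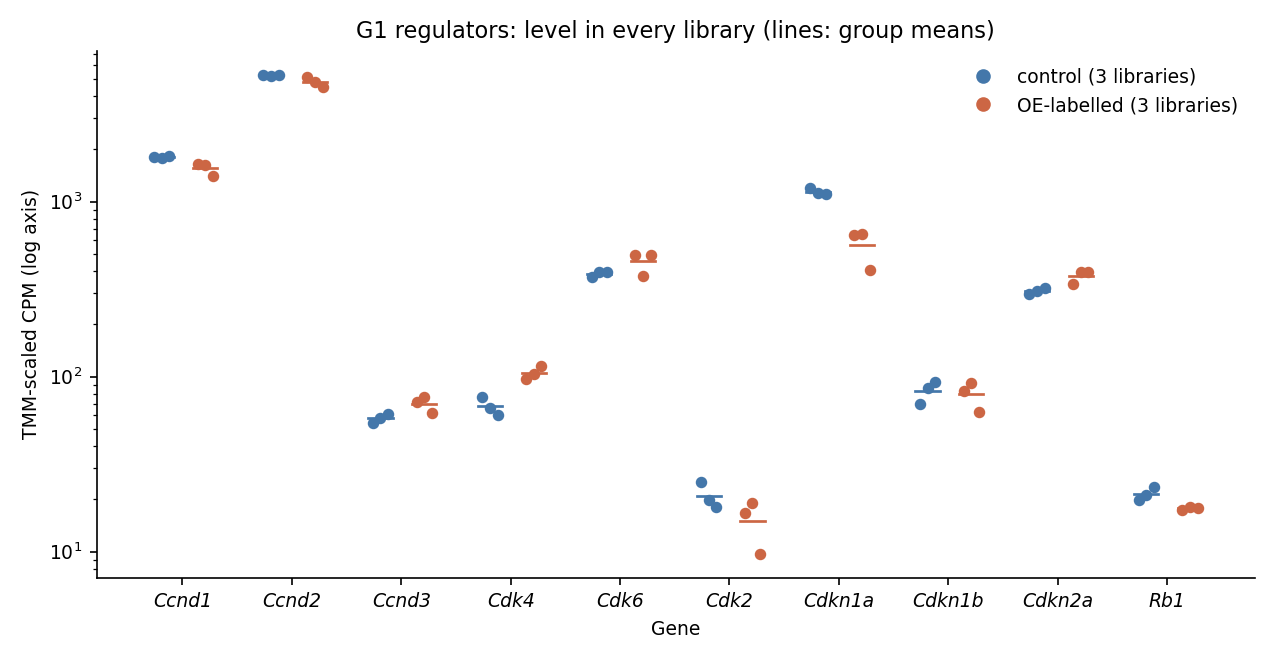
Level of each of the 10 genes in every library, in TMM-scaled CPM on a log axis, with controls in blue, OE-labelled libraries in orange and a line at each group mean. The groups stand well apart for Cdkn1a, from 408 to 650 CPM in OE-labelled libraries against 1104 to 1190 CPM in control, and are separated the other way for Cdk4.

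Cdkn1a (ENSMUSG00000023067, plus strand of chromosome 17, 29090976 to 29100727 in GRCm38) encodes p21, which binds cyclin-CDK complexes and halts the cycle after p53 activation or on differentiation. Its level was 1190, 1124 and 1104 CPM in control replicates 1 to 3, and 640.1, 650.4 and 408 CPM in OE-labelled replicates 1 to 3. Each OE-labelled value lay below every control value, and replicate 3 was the lowest of its group. The group means were 1139 ± 44.8 CPM and 566 ± 137 CPM (SD, n = 3). Cdkn1a fell by 1.01 on the log2 scale (SE 0.15, 95% interval -1.33 to -0.68, edgeR adjusted p = 0.000584), to 0.497 of the control level. Without OE-labelled replicate 3 the estimate was -0.82 (edgeR adjusted p = 3.9e-05). The annotation places 4 coding transcripts here, and the table holds 1 summed count for the gene. An opposite-strand gene, AC167363.2, overlaps its exons. The mitochondrial ribosomal RNA share moved with the groups as well, and with all mitochondrial genes and CT010467.1 removed the estimate was -1.07 (edgeR adjusted p = 0.000462).

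Cdkn1a was the gene of the set with the smallest p, and the genes with the most similar profile over the 6 libraries were listed as a description. Over the 5162 genes whose mean log2 CPM reached 5, the highest Pearson correlations of log2 CPM with Cdkn1a were those of Btbd7 (0.996), Itch (0.995), Morc4 (0.993), Mllt3 (0.992) and Atp11b (0.992). Their log2 fold changes ran from -1.02 (Morc4) to -0.39 (Mllt3). A correlation of at least 0.95 was reached by 146 of the 5162 genes. The 6 points form 2 groups from separate library series, which all these genes share.

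Cdkn1b (ENSMUSG00000003031, plus strand of chromosome 6, 134920401 to 134925513) encodes p27, which binds CDK2 complexes in resting cells. It was counted at 70.1, 86.3 and 93.1 CPM in controls and at 83.1, 92.4 and 62.6 CPM in OE-labelled libraries. The ranges overlapped, with the lowest value of all in OE-labelled replicate 3. The estimated log2 fold change was -0.07 (95% interval -0.41 to 0.28, edgeR adjusted p = 0.79), and its sign changed without that library (0.08) and without control replicate 3 (0.02).

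Cdkn2a (ENSMUSG00000044303, minus strand of chromosome 4, 89274471 to 89294653) encodes p16, an inhibitor of CDK4 and CDK6, and p19ARF, which stabilises p53. The coding transcripts start at 89282192 and 89294653 and share the exon at the 3′ end, so the counts add the messages of both proteins. The levels were 295.9, 308.7 and 322.5 CPM in controls and 337.9, 398.3 and 394.5 CPM in OE-labelled libraries. The ranges did not overlap, and the log2 fold change of 0.29 (SE 0.10, 95% interval 0.06 to 0.51) missed the threshold after adjustment (edgeR adjusted p = 0.0557). It passed in 4 of 20 alternatives, among them that without OE-labelled replicate 1 (0.30, edgeR adjusted p = 0.0132), and dropped to 0.03 with a GC offset and 0.066 with an exonic length offset (edgeR adjusted p = 0.881 and 0.683).

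Cdk4 (ENSMUSG00000006728, plus strand of chromosome 10, 127063534 to 127067920) encodes the kinase that partners the D-type cyclins. Its level was 77.0, 66.1 and 60.4 CPM in controls and 97.2, 103 and 115 CPM in OE-labelled libraries. All 3 OE-labelled values exceeded all control values. The means were 67.8 ± 8.43 CPM and 105 ± 8.83 CPM (SD, n = 3). Cdk4 rose by 0.63 on the log2 scale (SE 0.13, 95% interval 0.35 to 0.91, edgeR adjusted p = 0.00383), or 1.55-fold. The values rested on 131 to 167 counts in controls and 240 to 271 counts in OE-labelled ones.

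Cdk4 shares 641 exonic bases with Tspan31 on the opposite strand, and the strand setting of the counting is not given in the sources used here. Tspan31 had 65, 48 and 52 counts in controls and 57, 87 and 119 counts in OE-labelled ones. For Tspan31 the test gave a log2 fold change of 0.49 (edgeR adjusted p = 0.16). The 2 genes summed gave 93.3 ± 12.0 CPM in controls and 141 ± 22.5 CPM in OE-labelled ones (SD, n = 3), with 183 to 232 against 297 to 390 counts, which do not overlap. From the counts alone, reads of the 2 genes could not be told apart further.

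Cdk6 (ENSMUSG00000040274, plus strand of chromosome 5, 3341485 to 3531008) encodes the other partner of the D-type cyclins. It was counted at 371.5, 394.1 and 397.6 CPM in controls and at 492.6, 375.1 and 498.5 CPM in OE-labelled libraries. Replicates 1 and 3 of the OE-labelled group lay above all controls, whereas replicate 2 lay within them. The estimated log2 fold change was 0.23 (95% interval -0.03 to 0.49, edgeR adjusted p = 0.161). Without replicate 2 it was 0.33 and without replicate 1 it was 0.115 (edgeR adjusted p = 0.0483 and 0.428). With a GC offset it was 0.378 and with an exonic length offset 0.496 (edgeR adjusted p = 0.0479 and 0.00778).

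Cdk2 (ENSMUSG00000025358, minus strand of chromosome 10, 128697939 to 128705031), the kinase that acts with cyclins E and A, was near the lower end of the set. It had 54, 42 and 39 counts in controls and 41, 48 and 23 counts in OE-labelled ones, or 20.9 ± 3.60 CPM and 15.1 ± 4.77 CPM (SD, n = 3). The groups overlapped, and replicate 3 was lowest. The interval of the log2 fold change, -1.01 to 0.09 around -0.46, allows anything from a 2-fold decrease to little change at this depth (edgeR adjusted p = 0.189). The estimate was -0.228 without OE-labelled replicate 3 and -0.682 without replicate 2.

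**Figure D2:**
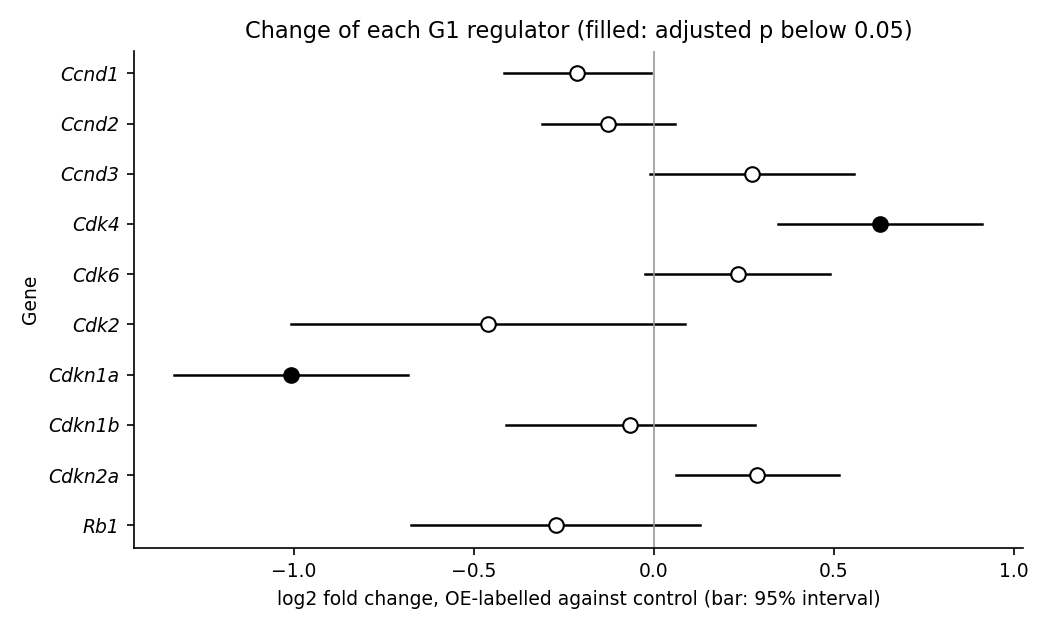
Log2 fold change of OE-labelled against control libraries for each of the 10 genes with its 95% interval from edgeR, filled where the adjusted p is below 0.05. Cdkn1a (-1.01) and Cdk4 (0.63) are the filled points. Among the open points, the intervals of Ccnd1 and Cdkn2a, which are not adjusted for the number of genes, leave out 0.

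The D-type cyclins are a part of the set that mitogens and WNT signalling act on, and Ccnd1 and Ccnd2 were abundant here. Ccnd1 (ENSMUSG00000070348, minus strand of chromosome 7, 144929931 to 144939925) was counted at 1802, 1777 and 1812 CPM in controls and 1644, 1615 and 1391 CPM in the OE-labelled libraries. Ccnd2 (ENSMUSG00000000184, minus strand of chromosome 6, 127125162 to 127152193) was counted at 5302, 5234 and 5301 CPM in controls and 5168, 4835 and 4503 CPM in the OE-labelled libraries. For both genes the OE-labelled values lay below the narrow control range, and replicate 3 was lowest. The log2 fold changes were -0.21 for Ccnd1 (95% interval -0.42 to -0.01, edgeR adjusted p = 0.105) and -0.13 for Ccnd2 (95% interval -0.31 to 0.06, edgeR adjusted p = 0.287). Without OE-labelled replicate 1 both passed, at -0.31 and -0.23 (edgeR adjusted p = 0.0054 and 0.0118). With Cdkn1a, Cdk4 and Cdkn2a, 5 of the 10 genes were called in that fit, against 30.8% of all genes tested in it. Without replicate 3 the estimates were -0.137 and -0.074, and Ccnd2 stood at -0.04 with a GC offset and 0.039 with an exonic length offset.

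Ccnd3 (ENSMUSG00000034165, plus strand of chromosome 17, 47505051 to 47599691) was counted at 54.4, 58.2 and 61.3 CPM in controls and 71.3, 76.3 and 62.1 CPM in OE-labelled libraries. The groups were separated by under 1 CPM, between control replicate 3 and OE-labelled replicate 3. The estimated log2 fold change was 0.27 (95% interval -0.01 to 0.55, edgeR adjusted p = 0.136), against 0.046 with a GC offset, 0.42 with an exonic length offset (edgeR adjusted p = 0.838 and 0.0435) and 0.177 without OE-labelled replicate 2. A near-identical copy, Ccnd3-ps, had no count in any library. Genes of the opposite strand overlap the exons of Ccnd1 (LTO1, 1100 bases, 23 to 35 counts per library) and Ccnd3 (Bysl, 361 bases, 29 to 69 counts per library).

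Rb1 (ENSMUSG00000022105, minus strand of chromosome 14, 73183673 to 73325822) encodes the protein that these kinases inactivate. It had 43, 45 and 51 counts in controls and 43, 46 and 42 counts in OE-labelled ones, or 21.5 ± 1.87 CPM and 17.8 ± 0.334 CPM (SD, n = 3). The CPM ranges did not overlap although the raw counts did, before scaling for depth. The estimated log2 fold change was -0.27 (95% interval -0.68 to 0.13, edgeR adjusted p = 0.289), and with a GC offset it was -0.046. Lpar6, a gene of the opposite strand inside Rb1, shares 408 exonic bases with it. It had 257 to 260 counts in controls and 241 to 288 counts in OE-labelled ones. Rcbtb2, also of the opposite strand, shares 488 exonic bases with Rb1 and had 18 to 25 counts in controls and 17 to 19 counts in OE-labelled ones. As for Cdk4, the strand setting of the counting is not given, so how reads of the shared bases were assigned is not known.

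By level, the order in control libraries was Ccnd2, Ccnd1, Cdkn1a, Cdk6, Cdkn2a, Cdkn1b, Cdk4, Ccnd3, Rb1 and Cdk2. These are levels in CPM of 3′ counts, which do not grow with transcript length and so were not divided by it. Differences between genes in priming near the polyadenylated end remain in them. Neighbours with overlapping control ranges were Cdkn1b and Cdk4, Cdk4 and Ccnd3, and Rb1 and Cdk2. In OE-labelled libraries Cdk4 stood above Cdkn1b, and their ranges did not overlap, while the ranges of Cdkn1a and Cdk6 overlapped, Cdkn1a replicate 3 (408 CPM) lying below Cdk6 replicates 1 and 3.

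Ratios of genes within a library need no scaling between libraries, and 7 of them were computed. Per Cdk4 count there were 15.5, 17.0 and 18.3 Cdkn1a counts in control libraries and 6.58, 6.31 and 3.56 in OE-labelled libraries. The means were 16.9 ± 1.42 and 5.49 ± 1.67 (SD, n = 3), with no overlap. Cdkn1a counts per Cdkn2a count were 3.69 ± 0.302 and 1.52 ± 0.441, and per Ccnd1 count 0.634 ± 0.0256 and 0.362 ± 0.0597 (SD, n = 3), again with no overlap. Cdk6 counts per Cdk4 count were 5.79 ± 0.893 and 4.35 ± 0.713 (SD, n = 3), with overlap and an exact permutation p of 0.2 (two-sided, 0.2 adjusted). Among the D-type cyclins, Ccnd2 held 74.0% ± 0.102 of the counts in controls and 74.9% ± 0.771 in OE-labelled libraries, Ccnd1 25.2% ± 0.0656 and 24.0% ± 0.703, and Ccnd3 0.812% ± 0.0481 and 1.08% ± 0.0747 (SD, n = 3). The other 6 ratios each gave an exact permutation p of 0.1 (two-sided, 0.117 adjusted over the 7 ratios), the smallest that 3 against 3 libraries allow. The ratios were chosen after the values were seen. Cdkn1a was lower, and Cdk4 and Cdkn2a higher, in every OE-labelled library than in every control. The lack of overlap of Cdkn1a per Cdk4 and per Cdkn2a count was therefore fixed beforehand. The same held for the Ccnd3 share, since Ccnd3 was higher, and Ccnd1 and Ccnd2 lower, in every OE-labelled library than in every control. The D-type cyclin shares are parts of the same total, so their p-values are not separate results.

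**Figure D3:**
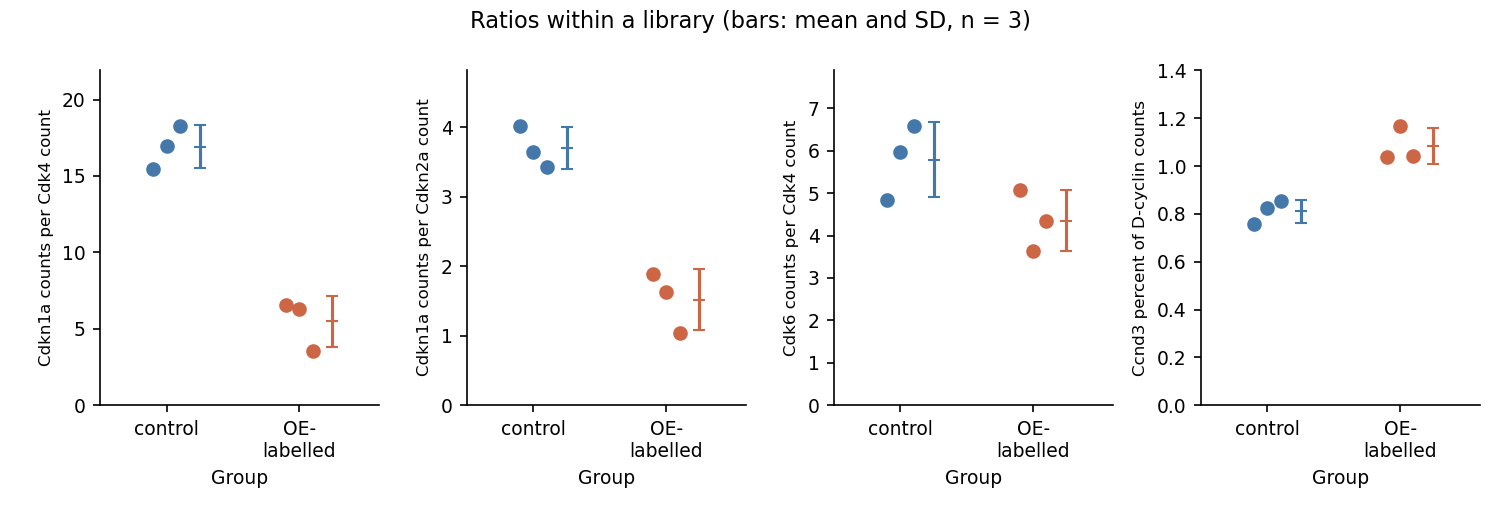
4 of the 7 ratios of counts within each library (vertical axes, from 0) by group, with 1 point per library and the mean and SD beside them. Cdkn1a counts per Cdk4 count fall between 15.5 and 18.3 in controls and between 3.56 and 6.58 in OE-labelled libraries, whereas the groups overlap for Cdk6 per Cdk4.

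The rest of the pathway was described from a list of 50 genes around RB1 and E2F. Of these, 38 were tested and 10 were called, 6 higher and 4 lower, or 26.3% against 29.2% of all genes. The median log2 fold change of the 38 genes was -0.08, with 15 above 0, against 0.04 for all genes. The remaining 12 genes had too few counts, and 1 of them reached no more than 3 counts in any library.

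Among the E2F factors and pocket proteins, E2f1, an activator of S-phase genes, rose and E2f3, another activator, fell. E2f1 had 12, 13 and 18 counts in controls and 51, 23 and 35 counts in OE-labelled ones, or a log2 difference of 1.15 (SE 0.33, edgeR adjusted p = 0.0209). E2f3 had 64, 46 and 62 counts against 36, 35 and 30 counts, or a log2 difference of -0.95 (SE 0.20, edgeR adjusted p = 0.0043). Rbl2, which encodes the RB1 relative p130 of resting cells, fell by 0.62 (SE 0.17, edgeR adjusted p = 0.0173). The E2f1 call was lost without control replicate 1, control replicate 2 or OE-labelled replicate 1 (adjusted p up to 0.0885) and with a GC offset (adjusted p = 0.0589). That of Rbl2 was lost without control replicate 2 or 3 (up to 0.0728), in the DESeq2 test (adjusted p = 0.0504) and with an exonic length offset (adjusted p = 0.0533).

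Cdkn1c, which encodes p57, the third CIP/KIP inhibitor, fell with Cdkn1a. It had 29, 32 and 34 counts in controls and 17, 18 and 21 counts in OE-labelled ones, or a log2 difference of -0.95 (SE 0.24, edgeR adjusted p = 0.0109), which did not pass without control replicate 3 (adjusted p = 0.0534). The INK4 genes Cdkn2b and Cdkn2d had log2 fold changes of -0.15 and -0.0039 (edgeR adjusted p = 0.539 and 0.991). Mnat1, an assembly factor of the CDK-activating kinase that phosphorylates CDK4, CDK2 and CDK1, fell from 97.9 ± 6.71 CPM to 56.2 ± 2.97 CPM (SD, n = 3), by 0.80 on the log2 scale (edgeR adjusted p = 0.000634).

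Cdk1, the kinase of mitotic entry, rose from 33.9 ± 3.38 CPM to 46.1 ± 4.47 CPM (SD, n = 3), by 0.45 (edgeR adjusted p = 0.0421), and Cdc25b, a phosphatase that activates it, rose by 0.61 (edgeR adjusted p = 0.0157). The Cdk1 call held in 10 of 20 alternatives. It was lost in 5 of the 6 fits that each left out 1 library, all but that without OE-labelled replicate 3 (adjusted p up to 0.167), and, with all libraries, under DESeq2 size factors, the DESeq2 test, no count filter, an exonic length offset and removal of mitochondrial genes (up to 0.195). The Cdc25b call was lost without control replicate 1 or 3 (up to 0.0721) and in the DESeq2 test (adjusted p = 0.0967). It was also lost with a GC offset, alone or with a replicate block (edgeR adjusted p = 0.0824 and 0.104). Fzr1, an activator of the anaphase-promoting complex in G1, rose by 0.77 (edgeR adjusted p = 0.00297), and Rbx1, the RING subunit of cullin ubiquitin ligases, by 0.58 (edgeR adjusted p = 0.00488). Lin37, a MuvB subunit, had 11, 6 and 9 counts in controls and 30, 25 and 36 counts in OE-labelled ones, or a log2 difference of 1.61 (SE 0.32, edgeR adjusted p = 0.00284). Rbx1 and Lin37 have near-identical copies in the genome, with at most 7 counts (Rbx1-ps) and 0 counts (Gm8802). Since the multi-mapping settings are not given, these counts do not show how many reads of Rbx1 and Lin37 were lost or misplaced.

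**Figure D4:**
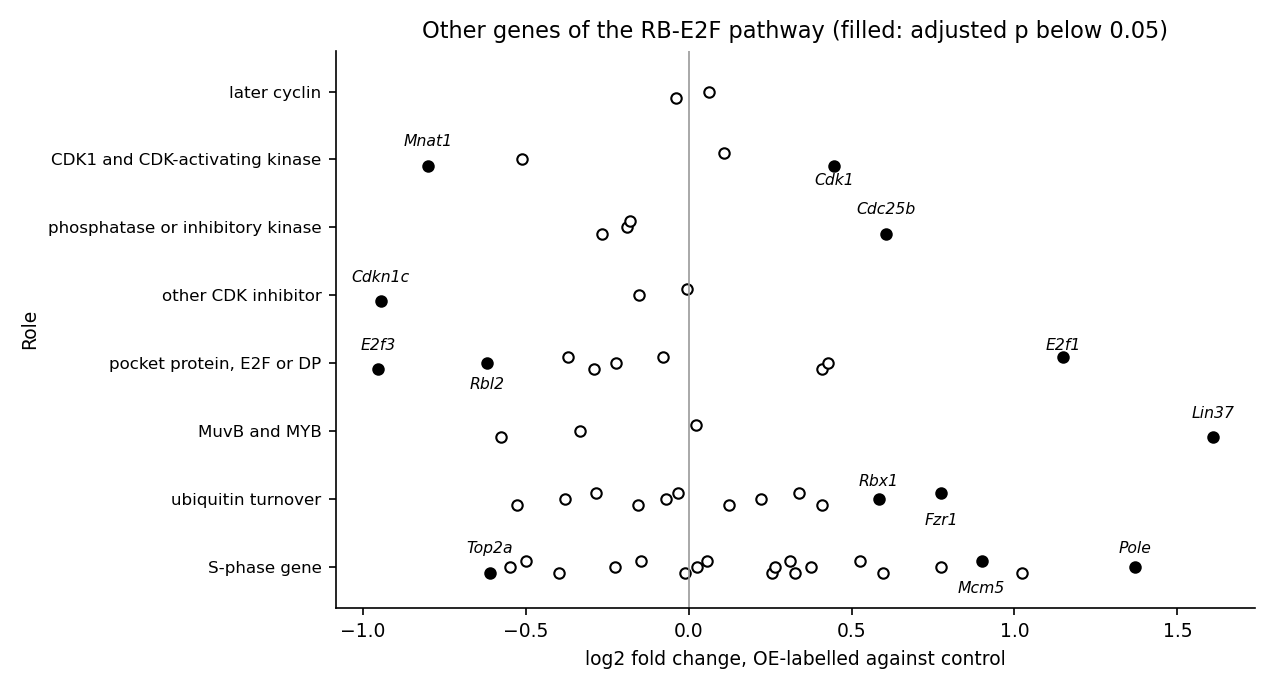
Log2 fold change of OE-labelled against control libraries for the 38 tested genes around RB1 and E2F and the 20 tested replication and proliferation genes (named S-phase genes), by role, filled and named where the adjusted p is below 0.05. Filled points lie on both sides of 0, from Cdkn1c and E2f3 (-0.95) to Lin37 (1.61).

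Replication and proliferation genes linked to E2F, named S-phase genes here, were counted from a list of 24. The list includes Top2a and Mki67, which are genes of dividing cells more broadly and not of the start of DNA replication. Of the 24 genes, 20 were tested and 3 (15%) were called, against 29.2% of all genes. Pole, a DNA polymerase subunit, rose by 1.37 (edgeR adjusted p = 0.00786), with 27, 9 and 11 counts in controls and 48, 50 and 41 counts in OE-labelled ones. Mcm5, a subunit of the replicative helicase, rose by 0.90 (edgeR adjusted p = 0.0343). Top2a, the topoisomerase of dividing cells, fell by 0.61 (edgeR adjusted p = 0.0126), from 81.4 ± 8.42 CPM to 53.3 ± 11.3 CPM (SD, n = 3). The proliferation marker Mki67 had a level of 17.5 ± 1.32 CPM in the controls against 15.9 ± 5.99 CPM (SD, n = 3; edgeR adjusted p = 0.724). The median log2 fold change of the 20 genes was 0.26, with 13 above 0, against 0.04 and 5663 of 10687 for all genes tested. The Mcm5 call held in 9 of 20 alternatives. Of the fits that each left out 1 library it held in that without OE-labelled replicate 3 and was lost in the other 5 (adjusted p up to 0.142), and with all libraries it was lost in the DESeq2 test (adjusted p = 0.166), at equal depth and with GC or exonic length offsets. Pole was lost without control replicate 3 (adjusted p = 0.0524). Top2a was lost without control replicate 1 or 2 or OE-labelled replicate 2 (up to 0.0678), with a GC offset (-0.415, edgeR adjusted p = 0.106) and with an exonic length offset (edgeR adjusted p = 0.0631). Without OE-labelled replicate 1, 6 of 21 tested genes of the list were called, against 30.8% of all genes tested in that fit.

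**Figure D5:**
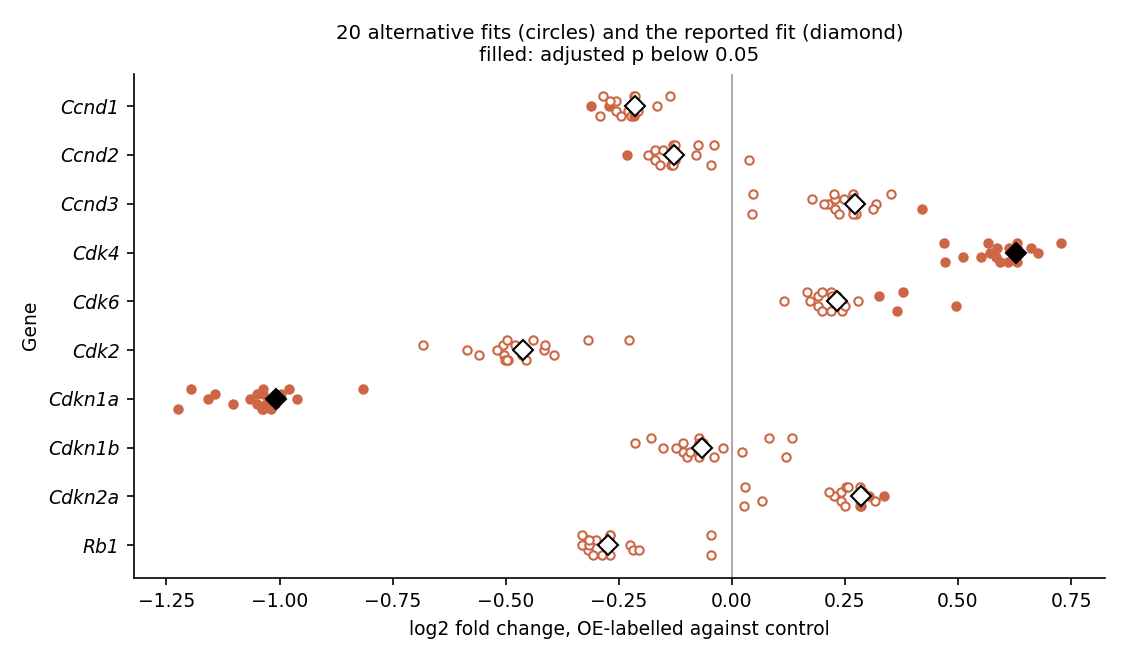
Log2 fold change of the 10 genes in the reported fit (diamond) and in 20 alternative fits (circles), filled where the adjusted p is below 0.05. Cdkn1a stays between -1.22 and -0.82 and Cdk4 between 0.47 and 0.73, filled in every fit, while points of Cdkn1b and Ccnd2 lie on both sides of 0.

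The OE-labelled libraries had the larger SD of CPM for each of the 10 genes except Rb1. OE-labelled replicate 3 was the lowest of its group for 6 of the 10 genes, and replicate 2 was the highest for 6. The calls of Cdkn1a and Cdk4 held in all 20 alternative fits that were run, with edgeR, DESeq2 or limma-voom adjusted p up to 0.00789 and 0.0343.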

How the data were processed

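The table the authors deposited holds estimated counts for each gene with no scaling, judged from its values: 2843 values were fractional, none of them in the 10 genes, and were rounded before testing. Libraries were QuantSeq 3′ forward, per the labels' protocols. STAR, HTSeq, mm10 and GRCm38 are named in the submitters' processing notes, and the annotation, strand and multi-mapping settings are not given in the sources used here. All columns were used and no row lacked a gene name.

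OE-labelled libraries (3) were compared with controls (3) by edgeR 4.0.16's quasi-likelihood test in R 4.3.3, with filterByExpr, TMM scaling, no covariate and Benjamini-Hochberg adjustment over the 10687 genes kept. CPM is the rounded count divided by the TMM-scaled library size, in the usual CPM unit. Standard errors are the estimate over the square root of F. The procedure was tested on simulated counts drawn with a common spread for all genes. The simulated counts held no GC or length trend between the groups. Floors of 3 counts cover counting error only, since no molecular identifiers are stated and PCR copies may be counted. Positions and overlaps came from GENCODE M21 (GRCm38), which held 99.5% of the identifiers. Copies share at least 60 40-mers with a last 400 bases of a coding transcript.

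The members and lists were chosen with earlier results of these data known. Named were the 10 members, every listed gene that passed (at most 10 a list) and the 5 genes most like the member of smallest p; Mki67, Cdkn2b, Cdkn2d and overlapping genes were added after their values were seen, as were the ratios. Alternatives were DESeq2 1.42.0, limma-voom (limma 3.58.1), other scalings, filters and thresholds, unrounded counts, equal depth, GC and length offsets (loess, span 0.5), removal of mitochondrial genes and CT010467.1, a replicate block, and each library left out. One listed immune marker is not reported here.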

Additional observations from a re-analysis of the deposited data

How the results depend on the processing

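Cdkn1a and Cdk4 kept direction and call in all 20 alternatives, the limma-voom fit with a variance per group having been added after the data were seen. Of the 200 values of the 10 genes from alternatives, 182 kept direction and side of the threshold, 13 newly passed and 5 changed sign. Beside 2 of the 10 genes called, 4 were called with the exonic length offset (Ccnd3 and Cdk6 in addition) and 4 with a variance per group (Ccnd1 and Cdkn2a in addition), 3 with library totals or at equal depth (Cdkn2a in addition), with the GC offset, alone or with the block (Cdk6), or without mitochondrial genes (Ccnd1), and 2 to 5 when single libraries were left out. Of all genes tested, these fits called 23% to 30% with all libraries and 15.9% to 32.6% with a single library left out. With the GC offset, Ccnd3 (0.046), Cdkn2a (0.03) and Rb1 (-0.046) came close to 0. Sign changes without a call were those of Ccnd2 (0.039 with the length offset, edgeR adjusted p = 0.809, in a range from 0.0118 to 0.82) and of Cdkn1b (0.133 with the GC offset, 0.12 with the GC offset and replicate block, and -0.215 to 0.082 when single libraries were left out). At an adjusted p below 0.01, 5 pathway genes and 1 S-phase gene passed, which the stricter threshold itself explains. Leaving out single libraries gave 6 to 11 pathway genes, the fewest without control replicate 3, where 15.9% of all genes tested were called. It gave 1 to 6 S-phase genes, the most without OE-labelled replicate 1, where 30.8% of all genes tested were called. The cause was not tested. Of 260 values of the 13 named list genes, 219 kept direction and call and 41 no longer passed; Mnat1, E2f3, Lin37, Rbx1 and Fzr1 passed in all 20. The titles give equal replicate numbers to the groups, but deviations of equally numbered libraries correlated at only 0.1, 0.02 and 0.07, although 5 of 6 libraries matched their own number best. With the replicate block 2 members, 10 pathway genes and 2 S-phase genes were called, Mcm5 being lost (edgeR adjusted p = 0.0505). At equal depth Lin37 and E2f1 kept their calls and Mcm5 (9 to 31 counts per library) lost its call.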
